A study of Mus musculus with 8 samples.

Results

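The clustered replication-dependent histone genes were the genes of the count table whose symbol starts with Hist1h, Hist2h, Hist3h or Hist4h, pseudogenes left out, which gave 69 of 53801 genes. They comprised 6 genes for the linker histone H1, 20 for H2A, 18 for H2B, 12 for H3 and 13 for H4. By name, 56 were Hist1 genes on chromosome 13, 10 Hist2 genes on chromosome 3, 2 Hist3 genes on chromosome 11 and 1 a Hist4 gene on chromosome 6. Hist1h2al, at 51202727 to 51203065 of chromosome 13, lies away from the other Hist1 genes, which span 21715763 to 23934851. RNA was measured by sequencing in Paneth cells, the antimicrobial secretory cells at the base of the small intestinal crypt, sorted as viable EpCAM+ Cd24+ cells 10 d after the induction of mutagenesis. All 8 mice are described as carrying β-catGOF, a stabilised β-catenin, and an Lgr5-promoter-driven tamoxifen-inducible Cre, which acts in Lgr5+ stem cells. The β-catGOF allele follows the design text of the series and the study's results, while the methods paragraph on this sequencing names the Mll1 flox alleles without it and calls the mice littermates. They received 1 mg tamoxifen on 3 consecutive days and, per the study's methods, were 4 to 6 wk old. The 4 control mice were β-catGOF; Mll1+/- and had lost 1 copy of Mll1 (Kmt2a), a histone H3 lysine methyltransferase, in recombined cells, and the 4 knockout mice were β-catGOF; Mll1-/- and had lost both. So described, no mouse without β-catGOF, or with both Mll1 copies, was part of the comparison.

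Replication-dependent histone genes are transcribed in S phase and supply the protein onto which newly copied DNA is wound. Their messengers are the exception among animal mRNAs in that they usually end in a short stem-loop bound by Slbp instead of in a poly(A) tail. Many of the genes can also be read through to a polyadenylation site further on, a form known from differentiated cells. Paneth cells are long-lived and have left the cell cycle, whereas the stem and transit cells beside them divide. The libraries here were primed with oligo(dT), which reads polyadenylated RNA, so the values below are levels of the polyadenylated or internally primed forms and not of all histone mRNA.

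The stem-loop is shown because the form that oligo(dT) misses ends at it, while the read-through form that oligo(dT) reads runs on past it. In the annotated transcripts (GENCODE M21, on GRCm38), 67 of the 69 genes had a transcript with a stop codon. In 46 of them the bases after the stop codon held GG, 4 pyrimidines, T and 3 further loop bases, 4 purines and CC, with all 6 stem positions paired, starting 22 to 59 bases after the stop codon. All 12 H4 genes with a match had a stem other than that of the 34 H1, H2A, H2B and H3 genes, which all shared 1 stem. The most frequent form of each is given 5′ to 3′ as DNA, with the loop in capitals. The first was found in 26 genes, Hist1h2ae, Hist1h2bg and Hist1h1c among them, and the second in 7, Hist1h4d, Hist1h4h, Hist1h4n and Hist1h4c among them.

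H1, H2A, H2B and H3: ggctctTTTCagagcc

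H4: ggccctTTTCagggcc

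Of the 46 genes, 23 had more than 100 annotated bases after the stem-loop, a stretch from which a polyadenylated form could come, and 23 had 100 or fewer. A further 4 genes, Hist1h2bc, Hist2h2be, Hist1h2bq and Hist1h2br, had over 100 bases after the stop codon without a match, and the other 19 had no match within an annotation that ended by then or had no stop codon.

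H2A and H2B genes often lie head to head and share the DNA between their starts. There were 13 such pairs with starts at most 400 bases apart, and for 9 the whole stretch between the starts was covered by the RefSeq promoter table (GRCm38.p6, 250 bases before to 50 after each start). The stretches of the 3 pairs that the results below turn on are printed on the plus strand, with the letters ATTTGCAT (the octamer, a known Oct1 element of H2B promoters), CCAAT and TATAAA in capitals on either strand, so that ATTGG and TTTATA mark a match on the minus strand.

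Hist1h2ae and Hist1h2bg, chr13:23571221-23571395: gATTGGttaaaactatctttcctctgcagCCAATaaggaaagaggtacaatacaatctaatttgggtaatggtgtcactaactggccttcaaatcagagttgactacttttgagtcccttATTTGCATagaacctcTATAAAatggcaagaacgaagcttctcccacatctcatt

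Hist2h2ac and Hist2h2be, chr3:96220881-96221118: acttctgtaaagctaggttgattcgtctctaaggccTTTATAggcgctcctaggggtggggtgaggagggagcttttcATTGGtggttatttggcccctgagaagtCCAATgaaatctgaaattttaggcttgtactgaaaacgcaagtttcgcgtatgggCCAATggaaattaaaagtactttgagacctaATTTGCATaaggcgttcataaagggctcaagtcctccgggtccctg

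Hist1h2ac and Hist1h2bc, chr13:23683949-23684198: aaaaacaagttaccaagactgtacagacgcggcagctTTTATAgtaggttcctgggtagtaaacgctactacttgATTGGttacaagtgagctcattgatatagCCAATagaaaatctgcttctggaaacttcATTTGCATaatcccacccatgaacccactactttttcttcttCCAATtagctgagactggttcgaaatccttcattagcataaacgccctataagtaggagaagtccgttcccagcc

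Each of the 3 held 1 octamer. The first held 2 CCAAT matches and the other stretches 3 each, and all had 1 TATAAA. Of the 9 covered pairs, 4 held the octamer. Over the 300-base windows of the 61 genes found in the promoter table, the octamer was present in 7 of 17 H2A and 7 of 16 H2B genes and in none of the H1, H3 and H4 genes, beside 1.74% of all 32851 promoter windows. CCAAT was present in all H1, H2A, H2B and H3 windows (6, 17, 16 and 10 genes) but in 3 of 12 H4 windows, beside 37.4% of all windows. TATAAA was present in 4 of 6 H1, 11 of 17 H2A, 8 of 16 H2B, 4 of 10 H3 and 8 of 12 H4 windows, beside 13.6% of all. The motifs do not overlap in letters, windows of a head-to-head pair share bases, and a match is a description of the letters and not of a bound site.

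Library totals lay between 13037832 and 14380240 counts, and the members together had 868 to 2475 counts per library, 0.00645% to 0.0185% of the total. Knockout 3 stood apart, with 19662 genes with a count where the other 7 libraries had 22623 to 26074, a TMM scaling factor of 0.632 where the others had 0.821 to 1.34, the highest summed Paneth marker level and the lowest member total. The 8 listed Paneth markers summed to 260389 to 770880 normalized CPM (counts scaled to library size and TMM factor), and the 12 listed immune markers to 1.65 to 13.7, none of them at 0 in every library. Stem cell markers summed to 705 to 1524 in controls and 274 to 955 in knockouts, and enteroendocrine markers, 6 of 8 of which were lower in knockouts at an unadjusted p under 0.05 beside 2.53% of all genes tested, to 405 to 1401 and 45.7 to 1855. Tuft markers summed to 120 to 344 in controls and 59.2 to 229 in knockouts, with all 5 tested markers below 0 in log2 fold change, and enterocyte markers to 62.3 to 240 and 14.8 to 172. The stem cell list did not move as one, with Olfm4 (log2 fold change −1.11 ± 0.47 SE), Slc12a2 (−0.85 ± 0.27) and Ascl2 (−0.82 ± 0.37) lower at an unadjusted p under 0.05, Axin2, which is also a Wnt target, higher (0.90 ± 0.31) and Lgr5 (0.04 ± 0.17) and Smoc2 (−0.05 ± 0.15) near 0, none of them called. Kmt2a itself was at 22.5 to 45.2 normalized CPM in controls and 25.7 to 38.6 in knockouts (log2 fold change −0.06 ± 0.24 SE), counted over the whole gene and so including whatever lies outside the deleted part, which checks no label. In sorted bulk RNA, a smaller number of cells of a type and less RNA per cell cannot be told apart.

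Polyadenylated histone RNA was found at a low level in these cells, and Hist1h2bc alone supplied 25.5% to 31.4% of it in each library. Hist1h2bc, an H2B gene with 2 exons whose annotated transcript (ENSMUSG00000018102, chromosome 13, 23684199 to 23692908, plus strand) carries 742 bases after its stop codon and no stem-loop match, reached 29.5 normalized CPM per kb of exon averaged over the 8 libraries. The next were Hist1h1b (linker histone H1.5) at 10.9 and Hist1h1c (H1.2) at 8.44 normalized CPM per kb. Hist1h2ae followed at 6.51, Hist1h4d at 6.28, Hist1h4h at 4.48 and Hist1h1e (H1.4) at 4.31 normalized CPM per kb. The last of the 10 highest were Hist2h2ac at 4.01, Hist1h4n at 3.76 and Hist1h4c at 3.30. The median over all 69 was 0.649 normalized CPM per kb. Ranked by mean normalized CPM without regard to length, the 10 highest genes held 65.8% to 77.9% of the members' sum in a library. That set had Hist1h1d, Hist3h2a and Hist2h2be in place of Hist1h4h, Hist2h2ac and Hist1h4n.

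**Figure D1:**
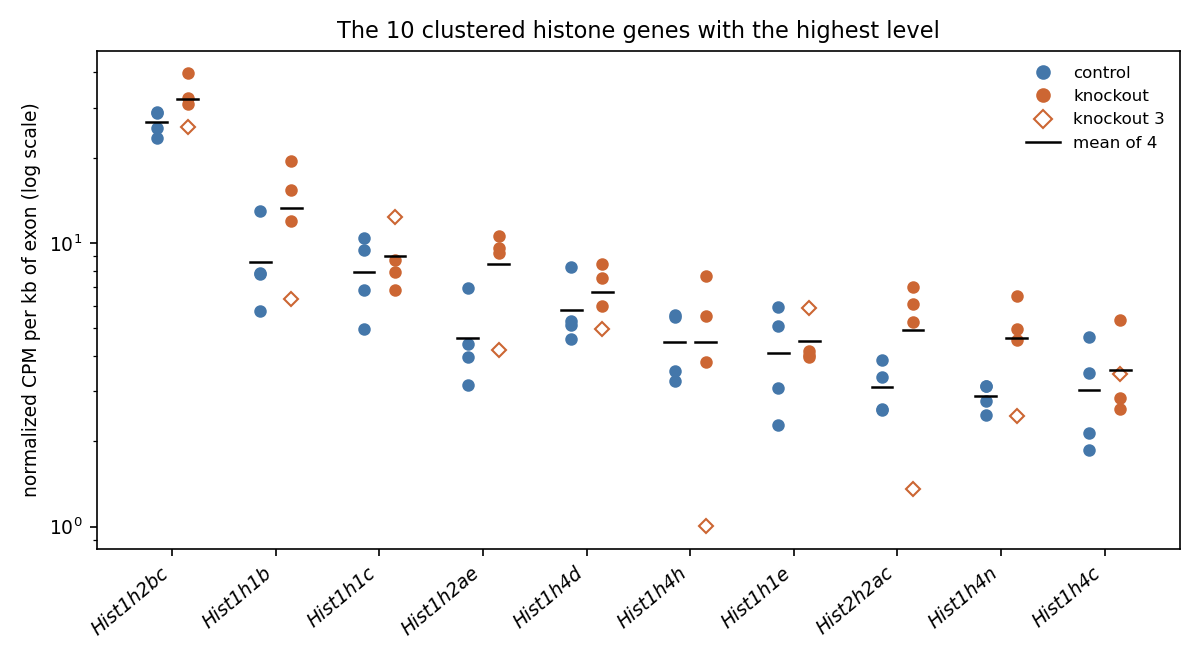
Level of the 10 highest clustered histone genes in normalized CPM per kb of exon (log axis), with 1 point per library, controls in blue, knockouts in orange, knockout 3 as an open diamond, and the mean of 4 as a line. Hist1h2bc averaged 29.5, above the 10.9 of Hist1h1b, and the control and knockout points overlapped for each of the 10 genes.

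Counts were spread unevenly over the histone types. H2B genes made up a median of 36.6% of the summed level over the 8 libraries, most of it from Hist1h2bc, H1 genes 27.9%, H4 genes 15.8%, H2A genes 13.2% and H3 genes 3.73%. Per kb, Hist1h1b was the highest H1 gene, Hist1h2ae the highest H2A, Hist1h2bc the highest H2B and Hist1h4d the highest H4 gene, while the highest H3 gene, Hist1h3e, reached 1.23 normalized CPM per kb. The H1 genes had the highest median level per kb of the types, 2.97, against 0.653 for H2A, 0.814 for H2B, 0.512 for H3 and 0.675 for H4.

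At the low end, 6 genes had no count in any library. These were Hist1h2ba, an H2B gene known from the testis, and Hist2h2aa1, Hist2h2aa2, Hist2h2bb, Hist2h3b and Hist2h3c1, and the 5 Hist2 genes share all of their exon bases with another annotated gene and all of their 75-base words with another transcript. Hist1h1t, the testis H1, had 4 counts over all libraries, and Hist1h2aa had 3. Each library had a count for 45 to 61 of the 69 genes. For a gene at 0 the limit set by 3 counts was 0.173 to 0.353 normalized CPM, depending on the library, which covers counting error only.

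The length of annotated sequence after the stem-loop did not order the levels. The 23 genes with over 100 bases after it had a median of 0.675 normalized CPM per kb (0 to 8.44), and the 23 with 100 or fewer had a median of 0.962 (0 to 4.48). The first group supplied 45.6% of all member counts, the second 13.6%, the 4 genes with a long end and no match 30.2% and the 19 remaining genes 10.6%. The ability to assign reads differed between these groups as well, with a median of 21.9% of a gene's 75-base words found in another annotated transcript in the first group and 56.6% in the second, and its part in the levels was not tested. The level per kb also depends on the annotated length, which some of the genes have only up to the stop codon. Over all 69 genes, 53 shared more than 20% of their 75-base words with another transcript and 5 shared none, and 26 overlapped an exon of another gene, so values of near-identical copies are uncertain under counting of unique alignments.

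Neighbours that share the DNA between their starts differed widely in level. Hist1h2bc was at 29.5 normalized CPM per kb and its partner across 250 bases, Hist1h2ac, at 0.555, a ratio of 53.0. Hist2h2ac was 4.10 times as high per kb as Hist2h2be, and Hist1h2ae 2.17 times as high as Hist1h2bg. The ratio of the higher to the lower gene ranged from 1.44 for Hist1h2ag and Hist1h2bj to 104 for Hist1h2ap and Hist1h2br over the 12 pairs in which both genes had counts. The upper end rests on 8 counts in all for Hist1h2br over 2212 exon bases, 87.6% of whose 75-base words are shared.

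The comparison of genotypes asked whether histone RNA in Paneth cells changed when the second copy of Mll1 was lost. Of the 69 genes, 30 passed the filter on low counts (edgeR's filterByExpr, minimum count 10) among 13439 genes tested, and 39 were too low to test. None of the 30 was called by edgeR's quasi-likelihood test at the study's limits (Benjamini-Hochberg adjusted p up to 0.05, absolute log2 fold change from 0.5), beside 0.186% of all genes tested, and none at a false discovery rate of 10%, beside 0.283%. At an unadjusted p under 0.05, 2 genes were higher in knockouts, beside 4.35% of all genes, and none was lower, beside 2.53%. DESeq2 also called none. The log2 fold change was above 0 for 24 of the 30 and below 0 for 6, with a median of 0.28, whereas 50.9% of all genes tested lay above 0 with a median of 0.01. Since a gene could pass the filter through the group in which it was higher, the count is a description of those 30 genes only.

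**Figure D2:**
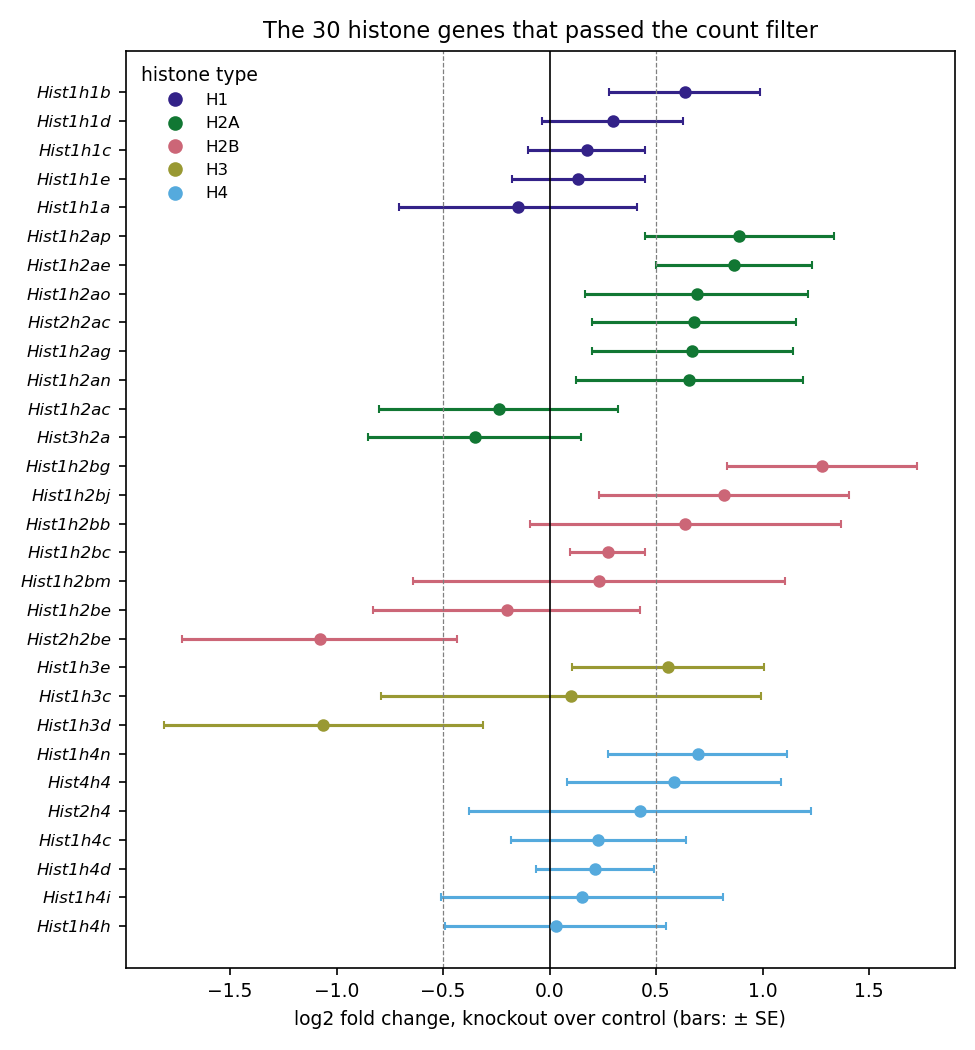
Log2 fold change of the 30 tested genes, knockout over control, with bars of ± 1 SE, coloured by histone type and ordered within it, dashed lines at −0.5 and 0.5. Of the 30 estimates 24 lie to the right of 0, and the H4 genes all do, from 0.03 for Hist1h4h to 0.70 for Hist1h4n.

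The 2 genes with an unadjusted p under 0.05 were Hist1h2ae and Hist1h2bg, which are partners of 1 head-to-head pair on chromosome 13 with 175 bases between their annotated starts, the first of the sequences printed above. Hist1h2bg, an H2B gene (chromosome 13, 23571396 to 23572013, plus strand), was at 1.26, 1.19, 1.26 and 0.633 normalized CPM in controls 1 to 4 and at 3.46, 2.53, 1.30 and 3.22 in knockouts 1 to 4. Every knockout lay above every control, though knockout 3 did so by little. The log2 fold change was 1.28 ± 0.45 SE with an adjusted p of 0.524 by edgeR's quasi-likelihood test. An exact two-sided permutation test of this gene gave p = 0.0286, the smallest that 4 against 4 mice allow, and 2.59% of all genes tested had every knockout above every control.

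Hist1h2ae, an H2A gene (chromosome 13, 23570517 to 23571220, minus strand), was at 4.90, 3.10, 2.79 and 2.22 normalized CPM in controls and at 6.79, 7.43, 2.95 and 6.51 in knockouts. Knockouts 1, 2 and 4 were above all controls and knockout 3 lay among them. The log2 fold change was 0.87 ± 0.37 SE (adjusted p = 0.670, edgeR's quasi-likelihood test). The libraries fall into 2 sets by their label numbers. In the first set, with controls 1 and 2 and knockouts 1 and 2, the ratio of means, knockout over control, was 2.44 for Hist1h2bg and 1.78 for Hist1h2ae, and in the second set it was 2.39 and 1.89, there through knockout 4, since knockout 3 lay close to the higher control for both genes. Of the 75-base words, 47.4% of those of Hist1h2bg and 34.4% of those of Hist1h2ae occur in other transcripts, and 19.6% of the exon bases of Hist1h2ae lie opposite Gm44394.

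**Figure D3:**
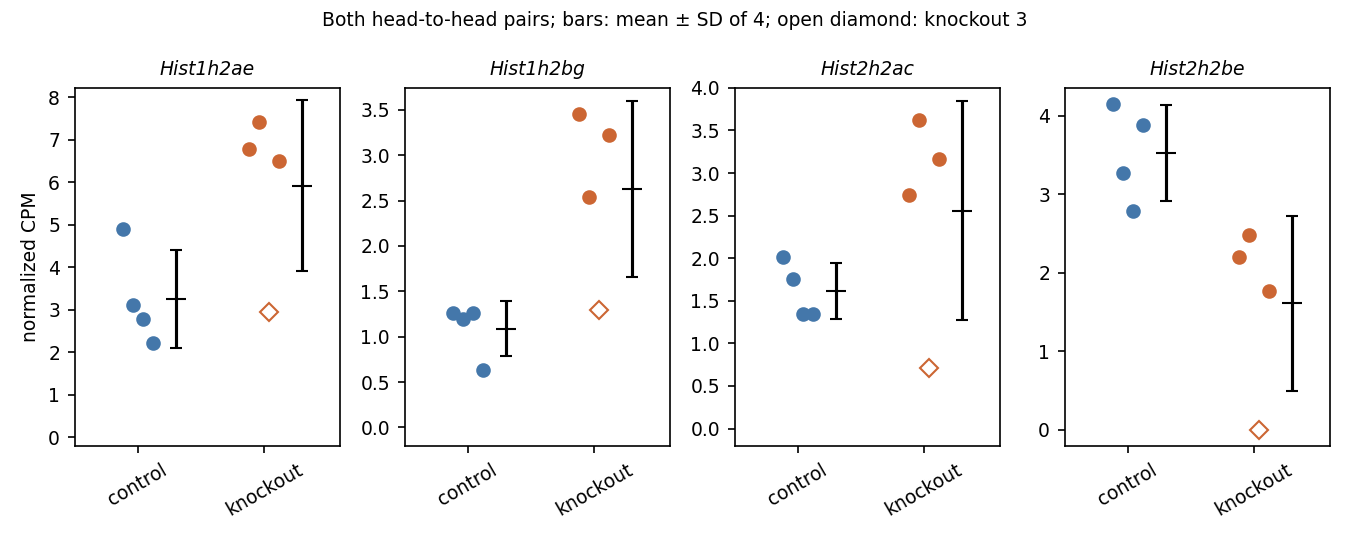
Normalized CPM of the genes of the pairs Hist1h2ae with Hist1h2bg and Hist2h2ac with Hist2h2be in each library, controls in blue, knockouts in orange, knockout 3 as an open diamond, with the mean ± SD of 4 in black. Every knockout of Hist1h2bg lies above 1.26, every knockout of Hist2h2be lies below 2.79, and knockout 3 is the lowest knockout for all 4 genes.

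The genes of the Hist2 pair lay on opposite sides of 0. These were picked out after their values were seen, because Hist2h2be was the sole tested member with every knockout below every control, beside 1.93% of all genes tested. Hist2h2be, an H2B gene whose transcript runs 2192 bases past the stop codon without a stem-loop match, was at 4.15, 3.26, 2.79 and 3.88 normalized CPM in controls and at 2.20, 2.48, 0 and 1.76 in knockouts. Knockout 3 had no count, and the other knockouts lay below the lowest control by a smaller gap. The log2 fold change was −1.08 ± 0.65 SE with an adjusted p of 0.849 by edgeR's quasi-likelihood test. None of its 75-base words occurs in another transcript. Hist2h2ac, the H2A partner with a stem-loop match and 57 bases after it, was at 2.01, 1.75, 1.35 and 1.35 normalized CPM in controls and at 2.74, 3.63, 0.707 and 3.16 in knockouts. Knockouts 1, 2 and 4 lay above all controls and knockout 3 below all (log2 fold change 0.68 ± 0.48 SE, adjusted p = 0.889, edgeR's quasi-likelihood test). No test of the difference between both genes was made.

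Among the highest genes, the genotypes overlapped. Hist1h2bc was at 33.5, 33.3, 29.5 and 27.2 normalized CPM in controls and at 37.7, 35.9, 29.6 and 45.9 in knockouts. Its knockouts 1, 2 and 4 lay above every control and its log2 fold change was 0.27 ± 0.18 SE (adjusted p = 0.876, edgeR's quasi-likelihood test). As the member with the most counts (3882 in all), it was also the one with the smallest error. Hist1h1b, a linker histone gene, was at 9.62, 4.30, 5.85 and 5.78 normalized CPM in controls and at 14.5, 11.5, 4.71 and 8.88 in knockouts (log2 fold change 0.63 ± 0.36 SE). It overlapped through control 1 and knockout 3. Its 743 annotated bases share no 75-base word with another transcript.

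The other H1 genes of the highest 10 behaved differently in knockout 3. Hist1h1c, whose transcript extends 840 bases past its stem-loop, was at 16.2, 14.7, 10.6 and 7.76 normalized CPM in controls and at 13.6, 12.4, 19.3 and 10.6 in knockouts. Hist1h1e, with 1153 bases after the stem-loop, was at 9.81, 11.5, 4.41 and 5.94 in controls and at 7.69, 8.06, 11.4 and 7.79 in knockouts. For both genes knockout 3 was the highest knockout and the controls of the first library set were above those of the second. The log2 fold changes were 0.17 ± 0.27 and 0.14 ± 0.31 SE. Of the exon bases of Hist1h1e, 25.7% lie within Hist1h2be on the same strand, so their reads cannot be told apart.

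The H4 genes of the highest 10 overlapped between genotypes. Hist1h4d was at 9.37, 6.05, 5.22 and 5.86 normalized CPM in controls and at 8.58, 9.62, 5.66 and 6.81 in knockouts. Hist1h4h was at 2.58, 2.63, 1.53 and 1.66 in controls and at 1.79, 2.59, 0.471 and 3.59 in knockouts. Control 1 was the highest control of the first and knockout 3 the lowest library of the second. Hist1h4n was at 1.07, 1.19, 1.35 and 1.35 normalized CPM in controls and at 2.15, 1.96, 1.06 and 2.80 in knockouts. Hist1h4c was at 1.76, 3.82, 1.53 and 2.85 in controls and at 2.32, 2.13, 2.83 and 4.38 in knockouts. Knockouts 1, 2 and 4 of Hist1h4n lay above all controls, and those of Hist1h4c did not. The 4 log2 fold changes were 0.21 ± 0.28, 0.03 ± 0.52, 0.70 ± 0.42 and 0.23 ± 0.41 SE, none with an adjusted p below 0.85 by edgeR.

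The other 18 tested members had between 68 and 383 counts over the 8 libraries, their groups overlapped, and their log2 fold changes ran from −1.06 to 0.89 with SEs of 0.33 to 0.89. The estimate was above 0 for 13 and below 0 for 5. At the upper end stood Hist1h2ap at 0.89 ± 0.44 and Hist1h2bj at 0.82 ± 0.59, an H2A and an H2B gene, and at the lower end Hist1h3d, an H3 gene, at −1.06 ± 0.75, all with an adjusted p of at least 0.779 by edgeR's quasi-likelihood test. The H2A genes Hist1h2ap, Hist1h2ao, Hist1h2an and Hist1h2ag, with estimates from 0.66 to 0.89, share 77.6% to 93.1% of their 75-base words with other transcripts.

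Of the 39 untested members, Hist1h2ai was the one whose groups did not overlap, at 0.189, 0.478, 0.450 and 0.238 normalized CPM in controls and 0.775, 0.576, 0.589 and 0.913 in knockouts. These rest on 3 to 15 counts per library, and 89.3% of its 75-base words occur in other transcripts. It was chosen after its values were seen. Of all genes tested, 2.59% had every knockout above every control, and the share among untested genes was not computed.

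Leaving out knockout 3 gave more members at an unadjusted p under 0.05, and more genes called over the whole table (152 against 25). With the other 7 libraries, 34 members were tested and none was called, beside 1.08% of 14086 genes. At an unadjusted p under 0.05, 7 members were higher, beside 6.48% of all genes, and 1 was lower, beside 4.85%. The higher ones were the H2B genes Hist1h2bg (log2 fold change 1.49 ± 0.38 SE), Hist1h2bk (2.01 ± 0.67) and Hist1h2bc (0.36 ± 0.16), the H2A genes Hist1h2ae (1.07 ± 0.30) and Hist2h2ac (0.96 ± 0.34), Hist1h1b (0.85 ± 0.28) and Hist1h4n (0.89 ± 0.37). The lower one was Hist2h2be (−0.72 ± 0.32). Their adjusted p ran from 0.116 for Hist1h2bg to 0.417 for Hist2h2be by edgeR's quasi-likelihood test. The median log2 fold change over the 34 was 0.47, beside −0.01 over all genes. Genes could pass this filter through the group in which they were higher, as Hist1h2bk and Hist1h2ai did. The median is thus a description of those 34 genes only. Leaving out control 1 gave a median of 0.59, while the number of members at an unadjusted p under 0.05 was 1 without control 3 or 4 or without knockout 1, 2 or 4. Hist1h2bk, which was named after its values were seen, had 1 to 7 counts in the controls and 12, 30, 0 and 25 in knockouts 1 to 4. It was not tested with all libraries and passed the filter without knockout 3 through the knockouts alone, the group in which it is high, so its estimate and its place among the 7 lend no support to a difference.

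Summed over the 69 genes, the level was 132, 117, 97.7 and 86.6 normalized CPM in controls 1 to 4 and 144, 139, 102 and 151 in knockouts 1 to 4. Knockouts 1, 2 and 4 were above every control and knockout 3 lay among the controls. The means were 108 ± 20.0 and 134 ± 21.6 normalized CPM (SD, n = 4), a mean log2 difference of 0.31 with knockout 3 and 0.43 without it. No test was run on the sum. Within the first library set the ratio of means was 1.13 and within the second 1.37, and in controls the first set was higher than the second. Without TMM scaling the log2 difference was 0.51, since the scaling factors of knockouts 1, 2 and 4 were the 3 highest of all libraries, and without Hist1h2bc it was 0.33.

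**Figure D4:**
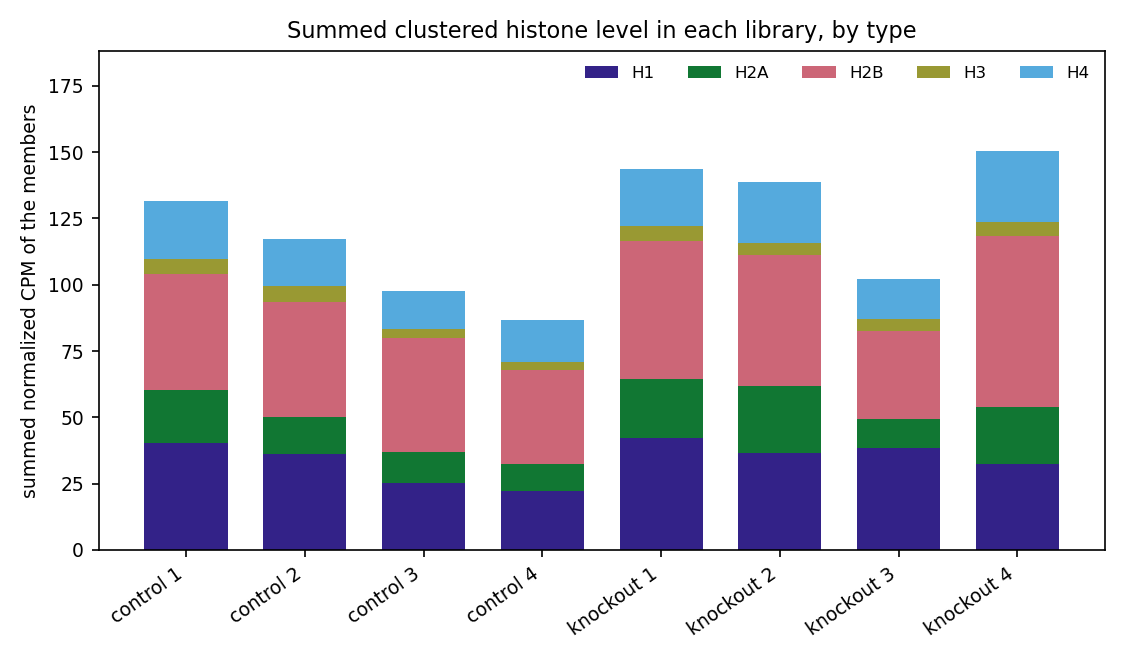
Summed normalized CPM of the 69 clustered histone genes in each library, stacked by histone type from 0. The bars of knockouts 1, 2 and 4 reach 139 to 151, those of the controls 86.6 to 132 and that of knockout 3 reaches 102, with H2B and H1 as the largest layers in all 8.

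By type, the ratio of means, knockout over control, was 1.42 for H2A, 1.24 for H4, 1.21 for H1, 1.21 for H2B and 1.12 for H3. The share of each type in the summed level moved little, with H2A at 12.7% in controls and 14.6% in knockouts and H2B at 38.8% and 36.9%. By cluster, Hist1 genes summed to 74.7 to 118 normalized CPM in controls and 95.9 to 137 in knockouts. Hist2 genes summed to 4.23 to 8.05 in controls and to 7.21, 8.24, 1.53 and 8.15 in knockouts, so that knockout 3 had the least. The Hist3 genes summed to 2.52 to 4.46 and 0.943 to 5.07, and Hist4h4, the lone Hist4 gene, was at 0.875 to 2.79 and 1.38 to 3.89. Their groups overlapped.

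The replacement histone genes, whose ordinary polyadenylated mRNAs are made outside S phase, provided the larger share per length of the histone RNA that oligo(dT) reads. The 11 listed genes summed to 151, 165, 174 and 175 normalized CPM per kb in controls and 176, 195, 168 and 199 in knockouts, and the 69 clustered genes to 131, 115, 101 and 85.4 in controls and 157, 154, 99.1 and 171 in knockouts. The clustered genes thus lay below the replacement genes in all 8 libraries, at 0.487 to 0.872 of them in controls and 0.590 to 0.894 in knockouts. Oligo(dT) misses the stem-loop-ended form of the clustered genes, so the comparison covers polyadenylated or internally primed RNA and not all histone mRNA. H3f3b, which encodes the replacement H3.3, was the highest of the list at 137, 171, 228 and 232 normalized CPM in controls and 227, 210, 237 and 267 in knockouts, which overlapped (log2 fold change 0.29 ± 0.20 SE). None of the 11 was called, and 2 were higher at an unadjusted p under 0.05, beside 4.35% of all genes, and 4 without knockout 3, beside 6.48%. H1fx, a replacement H1, was at 0.503, 0.796, 1.17 and 0.475 in controls and 1.73, 3.40, 1.89 and 0.973 in knockouts (1.45 ± 0.53). H2afy2, a macroH2A gene, was at 0, 0.0796, 0.270 and 1.11 in controls and 0.655, 1.61, 3.42 and 1.16 in knockouts (2.20 ± 0.93), with 3 controls at or below 3 counts. Both genes passed the filter mainly through the knockouts, where they are high (H1fx had 6 to 13 counts in controls and 16 to 59 in knockouts), so their p lends no support to a difference. Both overlapped between genotypes, and the median of the list was 0.33.

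Of the factors that transcribe histone genes and cut their mRNAs, 14 were tested and none was called. Npat, the coactivator that sits at the histone loci, was at 4.15, 3.42, 5.94 and 7.20 normalized CPM in controls and 8.82, 7.95, 11.1 and 11.9 in knockouts. Every knockout lay above every control (log2 fold change 0.94 ± 0.29 SE, adjusted p = 0.433, edgeR's quasi-likelihood test). Lsm10, a subunit of the U7 particle that guides the cut after the stem-loop, was at 2.58, 3.50, 3.33 and 4.35 in controls and 5.84, 4.67, 6.48 and 5.41 in knockouts, and it too was separated (0.70 ± 0.28 SE, adjusted p = 0.662, edgeR). For these genes knockout 3 was not low. They were the 2 of the list at an unadjusted p under 0.05, beside 4.35% of all genes, and its median was 0.08, or 0.20 without knockout 3. Every knockout lay above every control in 2.59% of all genes tested. Srrt, the highest of the list, was at 11.6 to 16.7 in controls and 11.7 to 23.3 in knockouts.

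Of 18 tested histone chaperones, none was called with all libraries, 3 were higher at an unadjusted p under 0.05, beside 4.35% of all genes, and 9 lay on each side of 0. Nap1l1, which escorts H2A and H2B, was at 21.6, 17.2, 22.6 and 26.0 normalized CPM in controls and 57.9, 66.1, 20.7 and 42.6 in knockouts. Knockouts 1, 2 and 4 were far above the controls and knockout 3 lay among them, so that its log2 fold change of 1.10 ± 0.30 SE (adjusted p = 0.350, edgeR) became 1.34 ± 0.19 without knockout 3 and was then called (adjusted p = 0.00525, edgeR's quasi-likelihood test). Nasp, a chaperone of H1 and H3, was at 26.2, 19.7, 17.5 and 22.2 in controls and 27.2, 24.9, 30.6 and 34.8 in knockouts (0.46 ± 0.19). Atrx, which with Daxx places H3.3 and was the highest of the list, was at 93.7, 66.6, 80.3 and 80.8 in controls and 100.5, 92.7, 117 and 109 in knockouts (0.39 ± 0.16). For both, control 1 and knockout 2 were the libraries that crossed.

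S phase and mitosis genes are the group whose RNA usually moves with histone RNA. None of the 25 was called. At an unadjusted p under 0.05, 6 were higher in knockouts and none was lower, beside 4.35% and 2.53% of all genes tested. The log2 fold change was above 0 for 23, beside 50.9% of all genes, and its median was 0.50, beside 0.01. Cdk1, the mitotic kinase, was at 9.37, 3.50, 14.58 and 7.20 normalized CPM in controls and 19.2, 25.0, 14.61 and 22.1 in knockouts. Ccna2, cyclin A2, was at 10.7, 11.9, 12.9 and 6.33 in controls and 13.2, 26.1, 21.8 and 13.3 in knockouts. The groups did not overlap for either, by a narrow gap in both (1.23 ± 0.36 and 0.83 ± 0.29 SE, adjusted p = 0.390 and 0.537, edgeR). Birc5 (0.51 ± 0.21 SE) was separated as well, and 2.59% of all genes tested had every knockout above every control. Rrm2, a subunit of the enzyme that makes deoxynucleotides, was at 4.20 to 5.94 in controls and at 5.48, 6.97, 33.2 and 8.46 in knockouts, so that its estimate fell from 1.39 ± 0.51 to 0.45 ± 0.25 without knockout 3. Top2a, the highest of the list, was at 54.1, 23.4, 39.3 and 26.8 in controls and 67.3, 95.03, 18.0 and 71.3 in knockouts, with knockout 3 the lowest library of all.

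**Figure D5:**
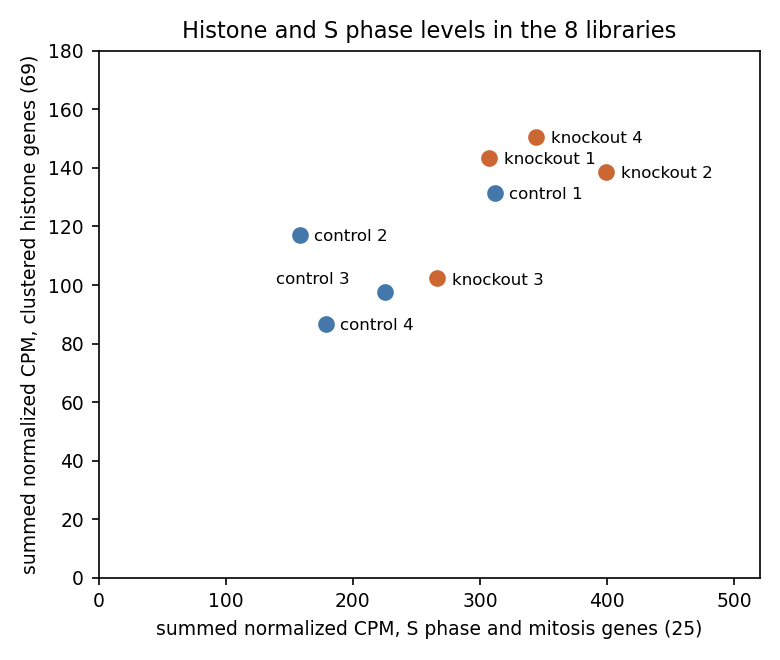
Summed normalized CPM of the 69 clustered histone genes (vertical) against that of the 25 S phase and mitosis genes (horizontal), 1 point per library, controls in blue and knockouts in orange. Control 1, at 311 and 132, lies beside knockouts 1, 2 and 4, and knockout 3, at 266 and 102, lies nearest control 3.

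The S phase genes summed to 311, 158, 225 and 179 normalized CPM in controls and 307, 399, 266 and 344 in knockouts. Control 1 was the control with the highest sum for S phase genes and for histone genes, and knockout 3 was the knockout with the lowest of both. The ratio of means, knockout over control, was 1.51 in either library set. The mean marker sums of stem, enteroendocrine, tuft and enterocyte cells given above were lower in knockouts, although Axin2 of the stem cell list was higher. The Paneth markers summed to 275033, 416324, 545938 and 535866 in controls and to 281796, 260389, 770880 and 339514 in knockouts. The part of cell composition in the histone values was not tested.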

How the data were processed

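Per the study's methods and the labels, 300 sorted cells per mouse were reverse transcribed with an oligo(dT) primer and template switching and amplified by PCR without molecular identifiers. Reads were mapped by the authors to mm10 (GSNAP), and uniquely aligned ones were counted per Ensembl gene with featureCounts 1.6.3 after bcl2fastq 2.19.1, and the deposited values are raw counts without normalization. The strand setting and the read length are not given in the sources used here, and 75 bases were taken for the search of shared words. Spike-in features (92) were left out. Symbols were matched by identifier for 53620 genes, 97.1% with the same span in GENCODE M21, among them all 69 members.

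The analysis used R 4.3.3, edgeR 4.0.16 and DESeq2 1.42.0. Counts were filtered with filterByExpr (minimum count 10, minimum total 15), TMM-scaled and fitted over all 13439 genes with robust quasi-likelihood fits without covariates (common biological coefficient of variation 0.376). The SE is the size of the log2 fold change divided by the square root of F. Single genes were also tested with an exact permutation test of log2(normalized CPM + 1) over 35 distinct splits. DESeq2, used by the study, was an alternative, as were other scalings and filters, the library set as a block and each library left out. Replicate numbers follow accession order and pair no samples. P-values measure the spread between libraries of 300 cells, in which mouse, cell sampling and amplification cannot be told apart. On simulated counts over 13064 genes, edgeR recovered 32% of 100 genes changed 2-fold and 81% of 100 changed 4-fold.

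The members and lists were chosen with earlier results of these data known. The genes named are the 10 members with the highest mean per kb, members called or with an unadjusted p under 0.05, in each list the genes called, up to 3 with the smallest unadjusted p under 0.05 and the highest by mean, the 5 other genes most like the members' sum, and Kmt2a. The listed name Symplk matched no symbol, which left 15 of 16 genes in that list. No genome of this build was used here, so stem-loops come from annotated transcripts.

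Further markers described the sorted cells, where 8 goblet markers summed to 1825 to 4347 normalized CPM in controls and 1697 to 4133 in knockouts. At an unadjusted p under 0.05, 2 of the 8 were lower, beside 2.53% of all genes. These were Fcgbp (log2 fold change −2.24 ± 0.62 SE) and Zg16 (−5.05 ± 2.02). Zg16 had 19 to 3379 counts in controls and 0 to 163 in knockouts. It passed the filter mainly through the controls, where it is high, so its p lends no support to a difference. Without knockout 3 neither Fcgbp (−2.30 ± 0.94 SE) nor Zg16 (−4.71 ± 2.41) was lower at that limit. Tff3 (−0.82) was then the 1 goblet marker that was, beside 4.85%.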

Additional observations from a re-analysis of the deposited data

Results flagged for a closer look

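Of 84 groups of 4 libraries examined (in each genotype, each tested member, the sums of each type and cluster, and the sums of all members, the replacement histones and the S phase genes), 7 held a library far from the other 3 by Dixon's criterion, where chance gives about 4. In knockout 3, Hist1h1e was at 11.4 normalized CPM against 7.69 to 8.06 in the other knockouts (gap over range 0.899), and the Hist2 genes summed to 1.53 against 7.21 to 8.24 (0.847). In control 4, Hist1h2bg was at 0.633 against 1.19 to 1.26 (0.894) and the H2B genes summed to 35.5 against 42.9 to 43.8 (0.894). In control 2, Hist1h3c was at 1.67 against 0.180 to 0.238 (0.961), a gene with 68 counts in all, and Hist1h2ag at 0.478 against 0.692 to 0.720 (0.882). In control 1, Hist1h4i was at 3.08 against 1.11 to 1.44 (0.834).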

How the results depend on the processing

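No member was called under any alternative run, DESeq2 and the library set as a block included. The number of members at an unadjusted p under 0.05, which was 2, became 6 without a filter and 1 with at least 10 counts in every library, and ran from 1 to 8 when single libraries were left out. Genes called over the whole table, 25, became 290 without a filter, 13 with at least 10 counts in every library and 138 with DESeq2, and ran from 10 to 152 with each library left out (152 without knockout 3). The median log2 fold change of the tested members, 0.28, was 0.56 without a filter and ran from 0.26 to 0.59 and the log2 difference of the summed level from 0.21 to 0.43 with each library left out. The tested members whose groups did not overlap, 2, became 0 on CPM without TMM scaling and ran from 2 to 7 with each library left out, where smaller groups separate more easily and the share over all genes was not computed, so nothing is read from the rise. These overlap counts and the summed level with DESeq2's size factors (0.31) were added after seeing the data. Of the 30 single members, 11 turned sign when a library was left out, neither Hist1h2bg nor Hist1h2ae among them. Their log2 fold changes ran from −0.45 to 0.11 for Hist1h1a, −0.018 to 0.34 for Hist1h1c, −0.062 to 0.36 for Hist1h1e, −0.52 to 0.063 for Hist1h2ac and −0.71 to 0.18 for Hist1h2be. They ran from −1.19 to 0.60 for Hist1h2bm, −0.29 to 1.54 for Hist1h3c, −0.044 to 0.50 for Hist1h4c, −0.34 to 0.33 for Hist1h4h, −0.11 to 0.62 for Hist1h4i and −0.016 to 0.73 for Hist2h4. The cause was not tested. The counts in the listed gene groups stayed within 1.5 times with DESeq2's size factors and with DESeq2. Without knockout 3 the replacement histones at an unadjusted p under 0.05 went from 2 to 4. The histone chaperones lower at that limit went from 0 to 1 (Ubn1, −0.35 ± 0.16 SE) and the Paneth markers lower from 0 to 2. The goblet markers lower went from 2 to 1 and the enterocyte markers lower from 1 to 0. No paired analysis was possible because no label ties a mouse to a litter or gives replicate numbers, although the methods call the mice littermates. Control 4 and knockout 4 have 1 animal number in common in their labels, which the sources do not explain. At this depth 18 of the 30 tested members share over 20% of their 75-base words with other transcripts, and 39 members could not be tested.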

Other observations

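The 5 genes outside the clusters whose log2 level over the 8 libraries was most like the summed level of the histone genes were Lgals3 (Pearson r = 0.985), Rps12-ps2 (0.970), Ctxn1 (0.948), Hhat (0.946) and Gm5446 (0.935). They are the top of 13439 genes ranked over 8 libraries that share depth and scaling, so the values are a description. Lgals3, which encodes galectin-3, was at 12.1, 11.8, 4.86 and 3.01 normalized CPM in controls and at 21.6, 16.6, 5.77 and 20.3 in knockouts. Knockout 3 and controls 3 and 4, which had the lowest summed histone levels, were its lowest libraries too.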
